A study of Homo sapiens with 9 samples.

Results

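Endoplasmic reticulum chaperones, stress sensors and degradation factors are described here as a set of 37 genes in BxPC3 cells treated with MS172, PK9328 or the vehicle DMSO. The members were taken by gene symbol from a list of unfolded protein response and endoplasmic reticulum-associated degradation genes, and XBP1 was also read transcript by transcript. All 37 were found among the 56865 genes of GENCODE 29 that were summed, and all 37 were among the 13914 genes that passed the filter on low counts. By role they are 12 chaperones and folding factors, 5 proteins of disulfide formation, 9 sensors and transducers, 9 degradation factors and 2 proteins of translocation and export.

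By the labels all 9 libraries are from 1 line, BxPC3, a human pancreatic adenocarcinoma line. All 9 carry the same label of mutant p53 with no second allele. Libraries were made from poly(A)-selected RNA, 3 each for MS172, PK9328 and DMSO, and hold 24077353 to 28031886 estimated reads per library. The protocol states 5 µM and 6 h for the compounds, but writes MS78 where the titles and treatment labels write MS172, so the dose and time of MS172 rest on a protocol with a different compound name. Nothing in the labels says that libraries of a group came from separate cultures, and p-values therefore measure the spread between libraries, which may be technical.

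The cell type label was set against marker genes. Of 14 ductal and epithelial markers, 8 were under 1 CPM (reads per 1000000 of the TMM-scaled library) in every library, among them KRT7, EPCAM and CDH1, while KRT8, KRT18 and KRT19 were between 289.7 and 984 CPM. Of 12 mesenchymal markers, 6 were under 1 CPM in every library. VIM was between 8080.2 and 10383 CPM, COL1A2 between 1799 and 2548 CPM, and ZEB1 between 80.1 and 103 CPM. The near absence of KRT7, EPCAM and CDH1 beside these levels goes against an epithelial line, whereas KRT8, KRT18 and KRT19 go with one. The name BxPC3 therefore rests on the labels, and the identity of the cells was not tested. The leukocyte, endothelial, and acinar and endocrine markers (5, 4 and 8 genes) were under 1 CPM throughout. The summed ductal markers were 2625 to 2788 CPM with MS172, 2011 to 2091 CPM with PK9328 and 2157 to 2325 CPM with DMSO, and the summed mesenchymal markers were 12408 to 12931 CPM with MS172, 9986 to 10254 CPM with PK9328 and 11796 to 11974 CPM with DMSO. Their part in the results was not tested, and in bulk RNA fewer cells of a kind and less RNA per cell cannot be told apart. Mean fragment length was 274.4 to 293.1 bases with MS172, 249.8 to 263.2 bases with PK9328 and 281.5 to 289.4 bases with DMSO, so that every PK9328 library had shorter fragments than every other library. For the comparisons with PK9328, values with fragment length as a covariate are therefore given where the call changed, and fragment length and compound cannot be fully told apart. Counts rebuilt from length-scaled TPM, which hold each gene to 1 mean transcript length over the libraries, are likewise given where they ended a call or moved its value by more than 1.5 times.

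The endoplasmic reticulum folds secretory and membrane proteins, and its load is read by the membrane sensors IRE1 (gene ERN1), PERK (EIF2AK3) and ATF6. Activated IRE1 cuts a short intron out of XBP1 mRNA in the cytosol, which shifts the reading frame and yields the active transcription factor XBP1s, an inducer of chaperones and degradation genes. PERK phosphorylates the translation factor eIF2α and thereby favours translation of ATF4, while ATF6 moves to the Golgi and is cut by the site-1 and site-2 proteases (MBTPS1 and MBTPS2) to release a transcription factor. Acinar and endocrine cells of the pancreas are known for a heavy secretory load and for a dependence on this pathway, but their markers were under 1 CPM here. Misfolded proteins that chaperones cannot rescue are returned to the cytosol by a membrane complex around SEL1L and the ubiquitin ligase SYVN1.

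The XBP1 sequences are shown because they separate the spliced from the unspliced message. The GENCODE 29 reference transcripts were sorted by 26 bases on chromosome 22 (minus strand, chr22:28796124-28796149 on GRCh38). These are given in capitals below with 20 bases on either side, written 5′ to 3′ as DNA. The whole transcripts also differ elsewhere, with 1850 bases in XBP1-201 (with the intron), 1131 in XBP1-202 and 1794 in XBP1-207 (both without). The bases at the ends of the intron repeat, and the annotation of XBP1-202 places the same gap 2 bases away, at 28796122 to 28796147.
XBP1 with the intron: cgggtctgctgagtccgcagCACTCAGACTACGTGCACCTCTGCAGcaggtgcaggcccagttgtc
XBP1 without the intron: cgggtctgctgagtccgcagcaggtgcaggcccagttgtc

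The spliced XBP1 message was far lower with MS172 than with DMSO, and higher with PK9328. Reads assigned to the coding transcripts without the 26 bases (XBP1-202 and XBP1-207) numbered 145.9, 113.4 and 168.8 in the 3 MS172 libraries, 2882.3, 3049.1 and 2463.5 in the PK9328 libraries, and 1012.4, 1275.9 and 1141.4 in the DMSO libraries. As a share of all coding XBP1 reads these were 2.92%, 2.35% and 3.58% with MS172, 42.2%, 42.2% and 39.6% with PK9328, and 22.1%, 25.4% and 28.0% with DMSO. No library of any group reached the range of another group.

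Mean spliced shares were 2.95% ± 0.62 with MS172, 41.4% ± 1.5 with PK9328 and 25.2% ± 2.9 with DMSO (SD, n = 3 each). The difference was -22.2 percentage points for MS172 against DMSO, 16.2 points for PK9328 against DMSO and -38.4 points for MS172 against PK9328. Each difference had p = 0.1 in the exact two-sided permutation test over libraries, the smallest p that 3 libraries against 3 can give. These shares come from the authors' assignment of reads to whole transcripts rather than from reads across the junction, and the assignment moved between the 2 spliced transcripts. XBP1-207 was at 0 in MS172 replicates 1 and 2 and XBP1-202 was at 0 in MS172 replicate 3, so the transcripts are given as a sum.

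Entered as separate rows in the edgeR quasi-likelihood fit of all genes, a fit added after the shares had been seen, spliced XBP1 fell by 2.85 ± 0.11 on the log2 scale with MS172 against DMSO (SE, adjusted p = 1.7e-10). It rose by 1.22 ± 0.08 with PK9328 against DMSO (adjusted p = 1.2e-07) and fell by 4.06 ± 0.10 with MS172 against PK9328 (adjusted p = 6.8e-13). With the fragment length covariate the PK9328 value was 1.34 (adjusted p = 0.0065). The unspliced form, in contrast, rose by 0.62 ± 0.04 with MS172 against DMSO (adjusted p = 5.4e-11) and by 0.48 ± 0.04 with MS172 against PK9328 (adjusted p = 2.3e-09). With PK9328 against DMSO the unspliced form had a log2 fold change of 0.14 ± 0.05 (adjusted p = 0.038), and this call was lost with the covariate (0.24, adjusted p = 0.23) and without any 1 of MS172 replicate 1, the 3 PK9328 libraries, DMSO replicate 2 or DMSO replicate 3. Without DMSO replicate 3 it was 0.09 (adjusted p = 0.25), the lowest of these values.

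**Figure D1:**
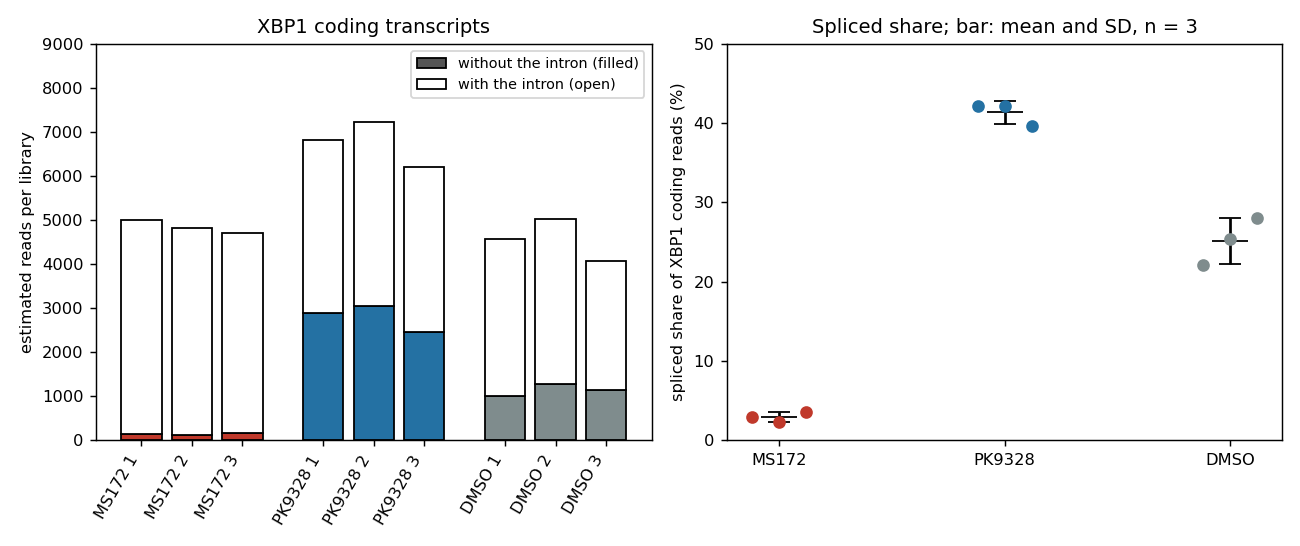
Left, estimated reads of XBP1 coding transcripts in each library, with the spliced form filled and the unspliced form open; right, the spliced share in percent for each library, with the mean and SD of 3. The MS172 libraries lie between 2.35% and 3.58%, the PK9328 libraries between 39.6% and 42.2%, and the DMSO libraries between 22.1% and 28.0%.

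In DMSO-treated cells the members covered a wide range of transcript abundance per length. CALR, the calcium-binding lectin chaperone calreticulin, had the highest mean with 1508 TPM (abundance per length, scaled to 1000000 per library), followed by its membrane-bound relative CANX with 558 TPM and the Hsp70-type chaperone HSPA5 (BiP) with 539 TPM. PDIA6, HSP90B1, PDIA3 and PDIA4 lay between 277 and 387 TPM, and XBP1 was the most abundant of the sensors and transducers with 146 TPM. The sensors themselves were low, with 13.2 TPM for ATF6, 5.51 TPM for EIF2AK3 and 3.70 TPM for ERN1, and MANF was lowest with 1.72 TPM. Of 36 pairs of neighbours in this order, 16 overlapped between libraries, among them CANX and HSPA5, PDIA3 and PDIA4, and every pair of neighbours from DNAJC3 down to EIF2AK3. MANF, a secreted factor of the reticulum, is uncertain at this level because 1 of its 5 annotated transcripts had no row in the tables. HSP90B1 and SSR1 were also incomplete, each with rows for 10 of 11 annotated transcripts.

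**Figure D2:**
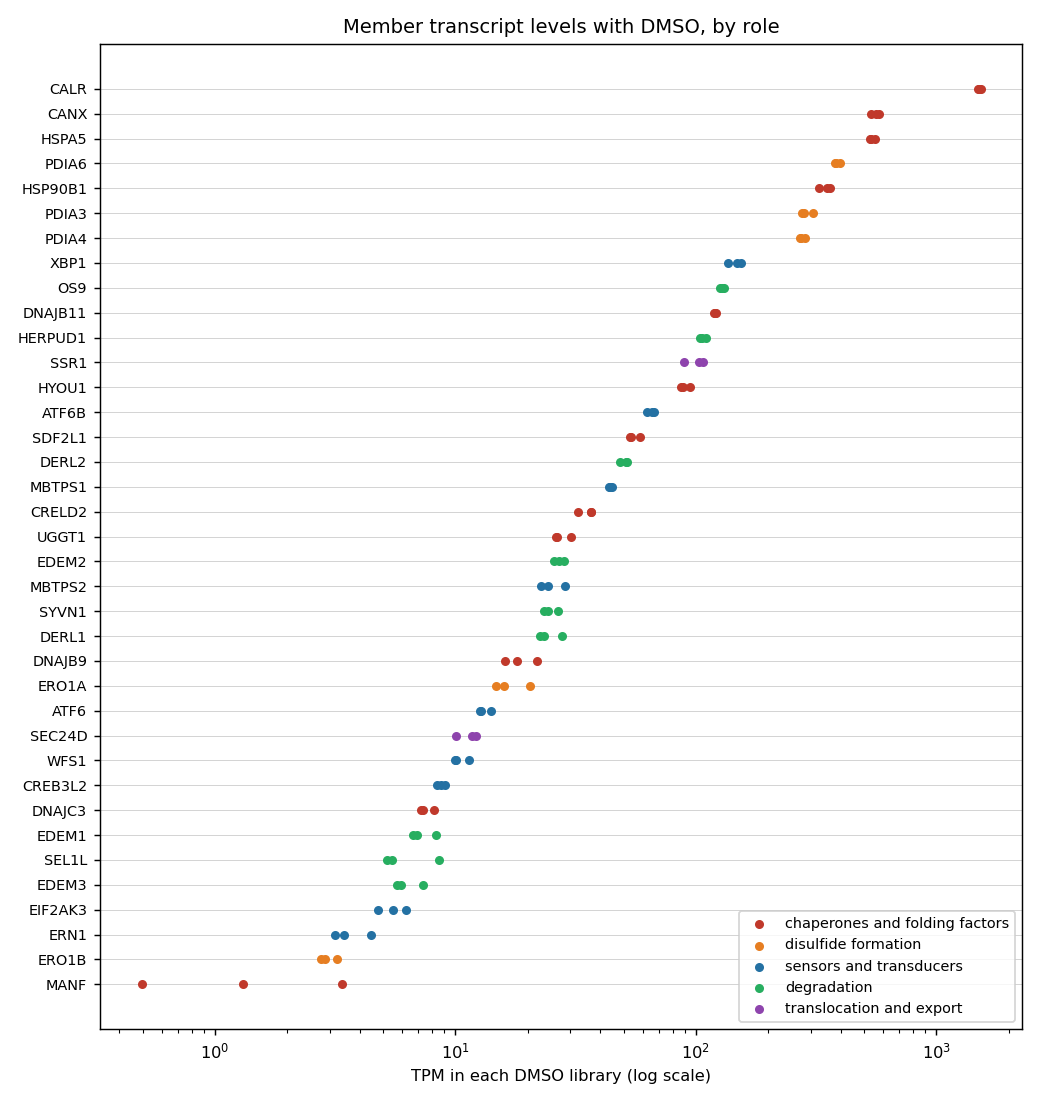
TPM of each member in each of the 3 DMSO libraries on a log axis, ordered by mean and coloured by role. Chaperones and disulfide isomerases fill the upper end, from CALR at a mean of 1508 TPM, and the sensors EIF2AK3 and ERN1 lie near the lower end at 5.51 and 3.70 TPM.

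With MS172 the members moved modestly and in both directions. Against DMSO 13 of 37 were higher and 6 lower at an edgeR adjusted p under 0.05, and 18 did not pass. Over all 13914 genes 35.1% passed, 17.9% higher and 17.2% lower, so the members' share was above the background in the upward direction and near it in the downward direction, and no test of that difference was made. The largest rises were in EIF2AK3 and SEC24D, and the clearest fall was in HERPUD1. Across the 37 the median log2 fold change was 0.05, beside a median of -0.02 over all genes tested.

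PK9328 gave fewer calls but the largest called changes of single members. Against DMSO 8 of 37 were higher and 7 lower, and 22 did not pass, where 15.5% of all genes passed, 7.98% higher and 7.48% lower. HERPUD1 and DNAJB9 rose more than 2-fold, SDF2L1, HSPA5, XBP1 and EIF2AK3 rose by 0.46 to 0.66 on the log2 scale, and the largest of the falls was that of CRELD2, by 0.21. The median over the members was -0.01 and that over all genes 0.00. With the fragment length covariate 5 rises (HERPUD1, DNAJB9, SDF2L1, HSPA5 and XBP1) and 1 fall (CRELD2) still passed, where 1.26% of all genes did, 0.783% higher and 0.474% lower.

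Set against each other, the compounds differed in most members. MS172 was higher than PK9328 in 18 of 37 members and lower in 10, with 9 not called, where 47.7% of all genes passed, 23.3% higher and 24.4% lower. This was the 1 pair of compounds compared, at the same stated dose and time, and the labels give no structures for them. By size of the difference, the members lower with MS172 were led by HERPUD1, DNAJB9, SDF2L1, HSPA5 and ERN1, and those higher by WFS1, DERL1, PDIA3, SEC24D and OS9. The comparisons with DMSO use the same DMSO libraries, so this direct comparison is the one that does not share them. With the fragment length covariate 17 members passed, 12 higher and 5 lower, where 17.7% of all genes did, 9.80% higher and 7.89% lower.

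**Figure D3:**
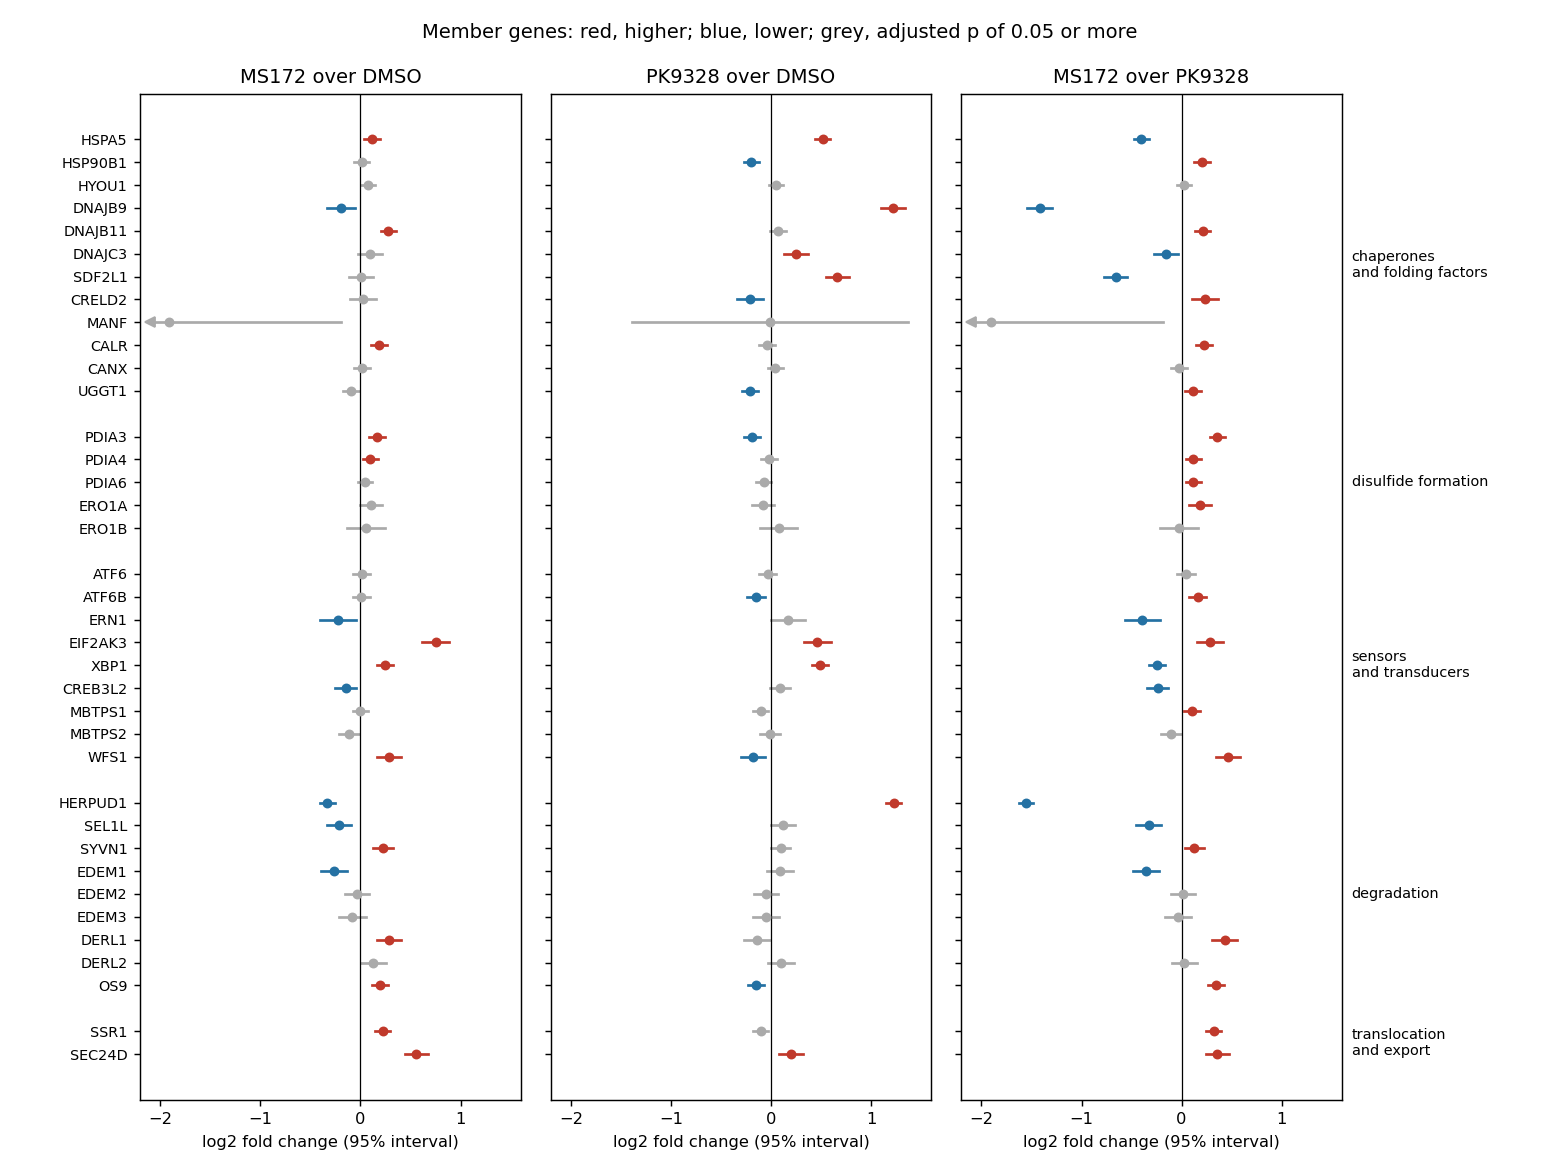
log2 fold change with its 95% interval for each member by role, for MS172 over DMSO, PK9328 over DMSO and MS172 over PK9328; red and blue points passed an adjusted p of 0.05 (higher and lower), grey did not, and the arrowed MANF intervals run past the axis. HERPUD1, DNAJB9, SDF2L1 and HSPA5 stand to the right with PK9328 over DMSO and to the left with MS172 over PK9328.

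Among the sensors and transducers, EIF2AK3, which encodes the eIF2α kinase PERK (chromosome 2, 88556741 to 88627576, minus strand), was higher with both compounds. Its level was 29.4, 28.6 and 27.9 CPM with MS172, 24.9, 22.0 and 23.5 CPM with PK9328, and 16.2, 17.2 and 17.7 CPM with DMSO, with no overlap between any of the groups. EIF2AK3 rose by 0.75 ± 0.07 on the log2 scale with MS172 against DMSO (SE, edgeR adjusted p = 3.8e-10), a fold of 1.68. The rise with PK9328 was 0.46 ± 0.07 (adjusted p = 1.1e-05), which missed the threshold with the fragment length covariate (0.36, adjusted p = 0.21). MS172 stood above PK9328 by 0.29 ± 0.06 (adjusted p = 0.00044), a call lost with length-scaled TPM (0.15, adjusted p = 0.35).

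XBP1 as a whole gene (chromosome 22, 28794555 to 28800597, minus strand) had 204, 214 and 197 CPM with MS172, 251, 247 and 231 CPM with PK9328, and 178, 175 and 166 CPM with DMSO. All 3 groups were apart, with PK9328 highest and DMSO lowest. Summed XBP1 rose by 0.25 ± 0.04 with MS172 (edgeR adjusted p = 1.7e-05) and by 0.49 ± 0.04 with PK9328 (adjusted p = 1.8e-10), and its log2 difference with MS172 against PK9328 was -0.25 ± 0.04 (adjusted p = 7.1e-06). With length-scaled TPM the rise with MS172 was lost (0.12, adjusted p = 0.082) and the difference between the compounds was -0.40. The gene total and the spliced form had opposite signs with MS172 against DMSO and the same sign with PK9328 against DMSO.

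ERN1, the gene of the sensor kinase and endonuclease IRE1 that splices XBP1, had 12.5, 14.2 and 13.8 CPM with MS172, 18.3, 17.1 and 17.9 CPM with PK9328, and 14.0, 18.0 and 15.4 CPM with DMSO. The MS172 and PK9328 libraries did not overlap, whereas the DMSO libraries ran across both. ERN1 was lower with MS172 than with PK9328, at -0.39 ± 0.09 on the log2 scale (edgeR adjusted p = 0.00036, and 0.065 with the fragment length covariate). Against DMSO its fall of 0.23 ± 0.09 with MS172 was just past the threshold (adjusted p = 0.043) and was lost when any 1 of MS172 replicates 1 and 3, PK9328 replicate 1 and DMSO replicates 2 and 3 was left out (log2 fold changes of -0.25 to -0.12, adjusted p of 0.053 to 0.36). RLE size factors, DESeq2, limma-voom and the replicate block also lost it, and with length-scaled TPM it was -0.44 (adjusted p = 0.017). With PK9328 against DMSO ERN1 had 0.17 (95% interval -0.00 to 0.34, adjusted p = 0.19), and 0.27 without DMSO replicate 2 (adjusted p = 0.029).

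WFS1, a membrane protein of the reticulum whose loss causes Wolfram syndrome, and the membrane-bound transcription factor CREB3L2 gave opposite patterns. WFS1 had 34.2, 36.9 and 33.1 CPM with MS172, 25.9, 24.8 and 24.6 CPM with PK9328, and 28.1, 28.9 and 28.6 CPM with DMSO, with MS172 highest and PK9328 lowest and no overlap. It rose by 0.28 ± 0.06 with MS172 against DMSO (edgeR adjusted p = 0.0003) and was 0.47 ± 0.06 higher with MS172 than with PK9328 (adjusted p = 1.2e-07). Its fall of 0.18 ± 0.06 with PK9328 against DMSO (adjusted p = 0.031) was lost with length-scaled TPM (-0.21, adjusted p = 0.073), with the covariate (-0.13, adjusted p = 0.72), with no filter, and without PK9328 replicate 2 or 3 or any 1 of the 3 DMSO libraries (adjusted p of 0.061 to 0.11). CREB3L2 had 47.2, 43.9 and 47.0 CPM with MS172, 56.6, 55.1 and 51.2 CPM with PK9328, and 52.2, 50.8 and 49.9 CPM with DMSO, where MS172 lay below both other groups. CREB3L2 fell by 0.14 ± 0.05 with MS172 against DMSO (adjusted p = 0.028), a call lost without MS172 replicate 2, DMSO replicate 1 or DMSO replicate 2 (adjusted p of 0.051 to 0.15), with DESeq2 and with length-scaled TPM (adjusted p = 0.062). It was lower with MS172 than with PK9328, at -0.24 ± 0.05 (adjusted p = 0.0003, and 0.056 with the covariate).

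The transcripts of ATF6, its paralogue and the proteases that cut ATF6 moved little, and the cutting itself was not measured. ATF6 was between 77.7 and 84.3 CPM in all 9 libraries, and its intervals were -0.08 to 0.10 for MS172 and -0.12 to 0.05 for PK9328 against DMSO on the log2 scale. ATF6B, its paralogue, had 104, 99.6 and 101 CPM with MS172, 90.9, 92.7 and 89.4 CPM with PK9328, and 97.6, 98.5 and 107 CPM with DMSO, and the PK9328 libraries lay below all others. ATF6B fell by 0.15 ± 0.04 with PK9328 against DMSO (edgeR adjusted p = 0.013), a call lost without PK9328 replicate 3 or DMSO replicate 3 (adjusted p of 0.053 to 0.12), with length-scaled TPM (-0.13, adjusted p = 0.36) and with the covariate (-0.22, adjusted p = 0.25), and it was higher with MS172 than with PK9328 by 0.16 ± 0.04 (adjusted p = 0.0024, 0.062 with the covariate, 0.42 for length-scaled TPM). MBTPS1, the site-1 protease, had 138, 139.8 and 135 CPM with MS172, 128, 123 and 132 CPM with PK9328, and 135, 141 and 137 CPM with DMSO. Its log2 fold changes against DMSO were -0.0014 and -0.10 (adjusted p = 0.98 and 0.059 for MS172 and PK9328, and 0.043 for PK9328 without PK9328 replicate 3), and the difference of 0.10 ± 0.04 for MS172 against PK9328 (adjusted p = 0.026) was lost without MS172 replicate 1 or 2 or PK9328 replicate 1 or 2 (adjusted p of 0.058 to 0.17), with no filter and with the covariate (0.17, adjusted p = 0.14), and it turned to -0.087 with length-scaled TPM (adjusted p = 0.17). MBTPS2, the site-2 protease, was between 78.0 and 95.5 CPM and was not called in any comparison with all libraries and this fit. Without DMSO replicate 3 it had -0.17 with MS172 against DMSO (adjusted p = 0.014), and for MS172 against PK9328 it had -0.11 without DMSO replicate 2 (adjusted p = 0.036), with like values with no filter and with only the 6 libraries compared (adjusted p of 0.040 to 0.044).

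In DMSO-treated cells HSPA5 came after CALR and CANX in mean TPM, overlapping CANX (chromosome 9, 125234853 to 125241330, minus strand). It encodes BiP, the Hsp70-type chaperone that binds unfolded proteins and holds the sensors inactive. HSPA5 had 1821, 1807 and 1745 CPM with MS172, 2405, 2350.1 and 2346 CPM with PK9328, and 1635, 1639 and 1686 CPM with DMSO, with PK9328 above and DMSO below the other groups. HSPA5 rose by 0.52 ± 0.04 with PK9328 against DMSO (edgeR adjusted p = 1.4e-11), a fold of 1.43, and the value for MS172 against PK9328 was -0.40 ± 0.04 (adjusted p = 4.6e-10). Against DMSO the rise with MS172 was 0.12 ± 0.04 (adjusted p = 0.017), and without MS172 replicate 1 or 2 it missed the threshold (adjusted p of 0.063 to 0.068), as it did with the replicate block (adjusted p = 0.053).

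The BiP cochaperones of the DNAJ family did not share a direction. DNAJB9 (ERdj4, chromosome 7, 108569568 to 108574850, plus strand), which delivers substrates and represses IRE1, had 20.3, 18.9 and 19.4 CPM with MS172, 52.1, 53.1 and 51.5 CPM with PK9328, and 21.2, 24.7 and 21.2 CPM with DMSO. The PK9328 libraries lay more than 2-fold above the other 6. DNAJB9 rose by 1.22 ± 0.06 with PK9328 against DMSO (edgeR adjusted p = 1.6e-15), and it was lower with MS172 than with PK9328, at -1.42 ± 0.06 (adjusted p = 9.9e-18). Its fall of 0.20 ± 0.07 with MS172 against DMSO (adjusted p = 0.022) was lost without MS172 replicate 2, MS172 replicate 3 or DMSO replicate 2 (log2 fold changes of -0.19 to -0.11, adjusted p of 0.055 to 0.22) and with DESeq2, and with length-scaled TPM it was -0.54 (adjusted p = 0.033).

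DNAJB11 (ERdj3), a soluble cochaperone, had 179, 174 and 168 CPM with MS172, 150.1, 149.6 and 151 CPM with PK9328, and 143, 137 and 149.5 CPM with DMSO, with MS172 above both other groups. It rose by 0.28 ± 0.04 with MS172 against DMSO (edgeR adjusted p = 1.4e-06) and was 0.21 ± 0.04 higher with MS172 than with PK9328 (adjusted p = 3.9e-05). DNAJC3 (p58IPK), a cochaperone and inhibitor of eIF2α kinases, had 35.4, 35.2 and 37.9 CPM with MS172, 41.3, 42.5 and 37.1 CPM with PK9328, and 33.1, 35.4 and 33.2 CPM with DMSO, and PK9328 lay above DMSO. DNAJC3 rose by 0.25 ± 0.06 with PK9328 (adjusted p = 0.0027), a call lost with the covariate (0.41, adjusted p = 0.073). Its difference between the compounds, -0.16 ± 0.06 for MS172 against PK9328 (adjusted p = 0.025), came with overlapping groups and was lost without MS172 replicate 1 or 2 or PK9328 replicate 1 or 2 (adjusted p of 0.088 to 0.15), with DESeq2, with length-scaled TPM (adjusted p = 0.1) and with the covariate (-0.32, adjusted p = 0.057).

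SDF2L1, which binds BiP cochaperones, and CRELD2, a stress-induced protein of the reticulum, moved apart with PK9328. SDF2L1 had 25.8, 28.7 and 27.2 CPM with MS172, 42.8, 42.9 and 43.1 CPM with PK9328, and 26.2, 27.6 and 27.4 CPM with DMSO, so that the PK9328 libraries stood alone and the other groups overlapped. SDF2L1 rose by 0.66 ± 0.05 with PK9328 against DMSO (edgeR adjusted p = 2.8e-10) and was lower with MS172 than with PK9328, at -0.66 ± 0.06 (adjusted p = 5.7e-11). With MS172 against DMSO it had 0.01 (95% interval -0.11 to 0.12). CRELD2 had 35.9, 32.0 and 32.4 CPM with MS172, 28.1, 26.8 and 30.2 CPM with PK9328, and 30.4, 33.0 and 35.2 CPM with DMSO, with PK9328 lowest. CRELD2 fell by 0.21 ± 0.06 with PK9328 (adjusted p = 0.022), a call that held with the covariate (-0.52, adjusted p = 0.013) but not without PK9328 replicate 1, PK9328 replicate 2 or DMSO replicate 3 (adjusted p of 0.072 to 0.14) or with length-scaled TPM (adjusted p = 0.09). With MS172 it was 0.24 ± 0.06 higher than with PK9328 (adjusted p = 0.003), and 0.55 with the covariate.

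Changes of the abundant chaperones other than HSPA5 were small. HSP90B1 (GRP94), the Hsp90 of the reticulum, had 750.3, 741 and 714 CPM with MS172, 659, 627 and 625 CPM with PK9328, and 697, 740.5 and 751 CPM with DMSO, with PK9328 lowest. It fell by 0.20 ± 0.04 with PK9328 (edgeR adjusted p = 0.0006, and 0.12 with the covariate) and was 0.21 ± 0.04 higher with MS172 than with PK9328 (adjusted p = 5.6e-05). CALR had 2387, 2377 and 2262 CPM with MS172, 1947, 2028 and 2043 CPM with PK9328, and 2096, 1986 and 2097 CPM with DMSO, and MS172 was above both other groups. CALR rose by 0.19 ± 0.04 with MS172 against DMSO (adjusted p = 0.00046) and stood 0.22 ± 0.04 higher than with PK9328 (adjusted p = 2.6e-05).

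UGGT1, the glucosyltransferase that tags unfolded glycoproteins for another round with CALR and CANX, had 125, 125 and 123 CPM with MS172, 118, 114 and 113 CPM with PK9328, and 126, 139 and 134 CPM with DMSO, and the groups did not overlap. UGGT1 fell by 0.21 ± 0.04 with PK9328 (edgeR adjusted p = 0.00038, and 0.21 with the covariate), or -0.35 with length-scaled TPM (adjusted p = 0.011). With MS172 against DMSO it had -0.09 (adjusted p = 0.065), and -0.13 without DMSO replicate 1 (adjusted p = 0.017). Between the compounds it was 0.12 ± 0.04 higher with MS172 (adjusted p = 0.018), which was lost without MS172 replicate 1, PK9328 replicate 2 or PK9328 replicate 3 (adjusted p of 0.053 to 0.068), with length-scaled TPM (0.17, adjusted p = 0.081) and with the covariate (0.13, adjusted p = 0.3). CANX and the Hsp110-type chaperone HYOU1 were not called in any of the comparisons, with intervals against DMSO of -0.06 to 0.09 (MS172) and -0.03 to 0.12 (PK9328) for CANX and of 0.00 to 0.14 and -0.02 to 0.12 for HYOU1. With length-scaled TPM, however, CANX had 0.30 with PK9328 against DMSO (adjusted p = 0.018) and -0.29 with MS172 against PK9328 (adjusted p = 0.0045), and with DESeq2 HYOU1 had 0.08 with MS172 against DMSO (adjusted p = 0.035).

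MANF had rows for 4 of its 5 annotated transcripts, so its counts may cover only a part of the gene. At 0.163 to 2.32 CPM, MANF had -1.91 with MS172 against DMSO (95% interval -3.63 to -0.19, edgeR adjusted p = 0.082) and -1.90 with MS172 against PK9328 (adjusted p = 0.067). Against DMSO it passed with no filter (adjusted p = 2.1e-05), the replicate block (0.0055), DESeq2 and without DMSO replicate 1 (0.0005), and without DMSO replicate 2 its value was -1.01 (adjusted p = 0.18). Against PK9328 it passed under 7 of the 18 alternatives, and with the covariate it was -1.17 (adjusted p = 0.72).

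Genes of disulfide formation tended to lie lower with PK9328 than with MS172. In the direct comparison 4 of 5 were higher with MS172 and none lower, where 23.3% of all genes were higher and 24.4% lower. With the covariate PDIA3 and PDIA4 were still called, where 9.80% of all genes were higher. By size PDIA3 (ERp57), the isomerase that works with CALR and CANX, differed most. PDIA3 (chromosome 15, 43746392 to 43773279, plus strand) had 536, 515 and 496 CPM with MS172, 422, 395 and 389.7 CPM with PK9328, and 456, 452 and 468 CPM with DMSO, with MS172 highest and PK9328 lowest. It rose by 0.17 ± 0.04 with MS172 against DMSO (edgeR adjusted p = 0.00095, lost with length-scaled TPM, where the log2 fold change was 0.08, adjusted p = 0.22), fell by 0.19 ± 0.04 with PK9328 (adjusted p = 0.0008, and 0.13 with the covariate) and was 0.36 ± 0.04 higher with MS172 than with PK9328 (adjusted p = 7.6e-09).

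PDIA4 (ERp72) had 680.3, 656 and 625 CPM with MS172, 602, 603 and 604 CPM with PK9328, and 602, 605 and 627 CPM with DMSO, and the MS172 libraries overlapped those of DMSO. It rose by 0.10 ± 0.04 with MS172 against DMSO (edgeR adjusted p = 0.042), a call lost without any 1 of MS172 replicates 1 and 2, PK9328 replicates 1 and 2 and DMSO replicates 1 and 2 (adjusted p of 0.051 to 0.23), with the replicate block, with length-scaled TPM (adjusted p = 0.063) and with only the 6 libraries compared. Against PK9328 it was 0.12 ± 0.04 higher with MS172 (adjusted p = 0.011, and 0.089 without MS172 replicate 1), and 0.22 higher with the covariate (adjusted p = 0.040). PDIA6 (P5) had 709, 706 and 667 CPM with MS172, 630.3, 647 and 641 CPM with PK9328, and 668, 668 and 683 CPM with DMSO, and it was higher with MS172 than with PK9328 by 0.12 ± 0.04 (adjusted p = 0.0084, and 0.12 with the covariate). ERO1A, the oxidase that recharges the isomerases, had 56.8, 53.1 and 55.5 CPM with MS172, 50.1, 49.3 and 46.3 CPM with PK9328, and 50.3, 55.5 and 48.1 CPM with DMSO, with MS172 above PK9328. It was 0.18 ± 0.05 higher with MS172 than with PK9328 (adjusted p = 0.0059, and 0.34 with the covariate), and for MS172 against PK9328 this direction turned to -0.11 (adjusted p = 0.41) with length-scaled TPM. With MS172 against DMSO it had 0.10 (adjusted p = 0.14), and 0.16 without DMSO replicate 2 (adjusted p = 0.024). ERO1B, its paralogue, lay between 10.0 and 12.4 CPM and was not called.

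Among the degradation factors, HERPUD1 (chromosome 16, 56932048 to 56944863, plus strand) had the largest called difference between the compounds. It encodes HERP, a membrane protein that assembles the degradation complex. HERPUD1 had 105, 105 and 101 CPM with MS172, 302, 303 and 309 CPM with PK9328, and 126, 132 and 133 CPM with DMSO, with no overlap between the 3 groups. It rose by 1.22 ± 0.04 with PK9328 against DMSO (edgeR adjusted p = 2.1e-21), a fold of 2.34, and fell by 0.33 ± 0.04 with MS172 against DMSO (adjusted p = 4.9e-08). For MS172 against PK9328 the log2 fold change was -1.55 ± 0.04 (adjusted p = 1.9e-24), and the calls of HERPUD1 in all 3 comparisons held under all 18 alternative settings.

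SEL1L, the scaffold of the retrotranslocation complex, and EDEM1, a mannosidase-like lectin that marks glycoproteins for degradation, were lowest with MS172. SEL1L had 31.1, 30.4 and 32.1 CPM with MS172, 42.1, 36.9 and 38.6 CPM with PK9328, and 33.8, 38.2 and 36.4 CPM with DMSO, and EDEM1 had 30.9, 30.1 and 28.9 CPM with MS172, 41.7, 36.3 and 37.0 CPM with PK9328, and 33.2, 39.5 and 35.3 CPM with DMSO. In both genes every MS172 library lay below every other library, and PK9328 and DMSO overlapped. SEL1L fell by 0.21 ± 0.06 with MS172 against DMSO (edgeR adjusted p = 0.0065, 0.052 without DMSO replicate 2 and 0.27 with length-scaled TPM) and had -0.33 ± 0.06 against PK9328 (adjusted p = 3.5e-05, and 0.086 with the covariate), or -0.59 with length-scaled TPM. EDEM1 fell by 0.26 ± 0.07 with MS172 against DMSO (adjusted p = 0.0023, and 0.057 with length-scaled TPM) and had -0.35 ± 0.06 against PK9328 (adjusted p = 5.3e-05, and 0.13 with the covariate). With PK9328 against DMSO SEL1L had 0.12 (-0.00 to 0.23) and EDEM1 had 0.09 (-0.04 to 0.22), the 95% intervals in brackets.

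OS9, DERL1 and SYVN1 moved the other way with MS172. OS9, a lectin that hands glycoproteins to SEL1L, had 294, 292 and 272 CPM with MS172, 224, 220.3 and 233 CPM with PK9328, and 239.9, 249 and 261 CPM with DMSO, with MS172 highest and PK9328 lowest. OS9 rose by 0.19 ± 0.04 with MS172 against DMSO (edgeR adjusted p = 0.00026) and was 0.34 ± 0.04 higher than with PK9328 (adjusted p = 2.6e-08). Its fall was 0.15 ± 0.04 with PK9328 against DMSO (adjusted p = 0.0093), a call lost with the covariate (-0.28, adjusted p = 0.050), with length-scaled TPM (-0.10, adjusted p = 0.19) and without PK9328 replicate 2 or DMSO replicate 3 (adjusted p of 0.069 to 0.081).

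DERL1, a membrane protein of the retrotranslocation channel, had 40.5, 41.6 and 36.2 CPM with MS172, 28.3, 30.8 and 28.7 CPM with PK9328, and 33.1, 32.7 and 31.3 CPM with DMSO, again with MS172 highest. DERL1 rose by 0.29 ± 0.06 with MS172 against DMSO (edgeR adjusted p = 0.00034) and was 0.43 ± 0.06 higher than with PK9328 (adjusted p = 6e-07). SYVN1 (HRD1), the ubiquitin ligase of the complex, had 71.1, 66.3 and 66.2 CPM with MS172, 60.5, 63.5 and 62.4 CPM with PK9328, and 55.2, 60.7 and 58.3 CPM with DMSO, and MS172 lay above the other groups. It rose by 0.22 ± 0.05 with MS172 against DMSO (adjusted p = 0.00051). Its difference from PK9328, 0.13 ± 0.05 higher with MS172 (adjusted p = 0.028), was lost without MS172 replicate 1 or PK9328 replicate 1 (adjusted p of 0.11 to 0.17), with length-scaled TPM (adjusted p = 0.069) and with the covariate (0.25, adjusted p = 0.072). EDEM2 (33.0 to 39.3 CPM), EDEM3 (25.5 to 31.5 CPM) and DERL2 (29.6 to 35.1 CPM), relatives of EDEM1 and DERL1, were not called in any comparison, though without MS172 replicate 3 DERL2 had 0.19 with MS172 against DMSO (adjusted p = 0.032).

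Both members of translocation and export were called higher with MS172 than with DMSO and with PK9328, where 17.9% and 23.3% of all genes were. For SSR1 neither call held with length-scaled TPM. SEC24D, a cargo adaptor of the COPII coat that buds vesicles from the reticulum (chromosome 4, 118722823 to 118838683, minus strand), had 45.5, 48.0 and 44.3 CPM with MS172, 34.9, 34.7 and 38.0 CPM with PK9328, and 31.5, 32.9 and 29.2 CPM with DMSO, with no overlap between groups. SEC24D rose by 0.56 ± 0.06 with MS172 against DMSO (edgeR adjusted p = 7.7e-09), a fold of 1.47, and was 0.36 ± 0.06 higher than with PK9328 (adjusted p = 4.7e-06). Its rise of 0.20 ± 0.06 with PK9328 against DMSO (adjusted p = 0.017) was lost with length-scaled TPM (0.07, adjusted p = 0.61), with the covariate (0.17, adjusted p = 0.59) and without PK9328 replicate 3 or DMSO replicate 3 (adjusted p = 0.11 in each case). SSR1, a subunit of the translocon-associated complex, had 189, 193 and 193 CPM with MS172, 154, 157 and 150.1 CPM with PK9328, and 169, 167 and 158 CPM with DMSO, with MS172 highest. It rose by 0.22 ± 0.04 with MS172 against DMSO (adjusted p = 2e-05) and was 0.32 ± 0.04 higher than with PK9328 (adjusted p = 1.8e-08). Rebuilt from length-scaled TPM these values were 0.03 (adjusted p = 0.71) and -0.0021 (adjusted p = 0.98). With PK9328 against DMSO SSR1 had -0.10 (adjusted p = 0.055), which passed with RLE size factors, DESeq2 and without DMSO replicate 3 (adjusted p of 0.032 to 0.046).

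**Figure D4:**
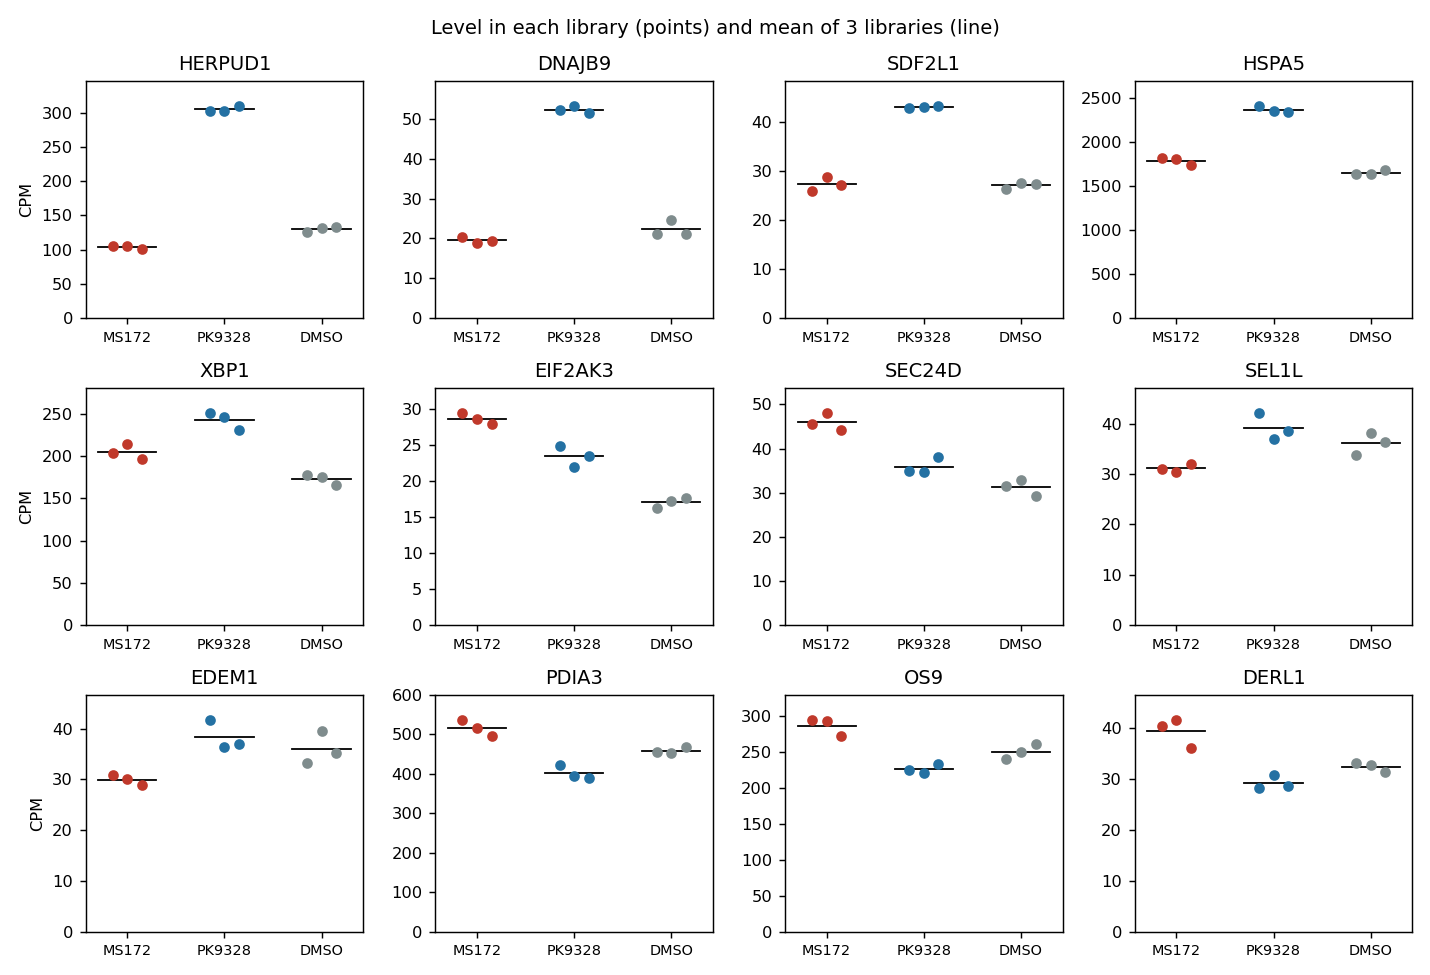
CPM of 12 members in each library (points, replicates 1 to 3 from left to right) with the group mean (line), for MS172, PK9328 and DMSO. HERPUD1, DNAJB9, SDF2L1 and HSPA5 are highest with PK9328, EIF2AK3, SEC24D, PDIA3, OS9 and DERL1 are highest with MS172, and SEL1L and EDEM1 are lowest with MS172.

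Other genes of the reticulum, from a list that holds no member, were counted in the same fits. Of 66 such genes, 64 passed the filter (DERL3 and STC2 did not). With MS172 against DMSO 42 rose and none fell at an edgeR adjusted p under 0.05, with a median log2 fold change of 0.14, where 17.9% of all genes were higher and 17.2% lower. SSR2, a further subunit of the translocon-associated complex, rose by 0.36 ± 0.04 (adjusted p = 2.5e-08), HSPA13, an Hsp70-like microsomal protein, by 0.42 ± 0.05 (adjusted p = 3.6e-08), the retrieval receptor KDELR2 by 0.31 ± 0.04 (adjusted p = 1.3e-07), and RPN1 of the oligosaccharyltransferase by 0.31 ± 0.04 (adjusted p = 1.7e-07). SSR2 had 336, 345 and 314 CPM with MS172, 215, 221 and 224 CPM with PK9328, and 267, 246 and 263 CPM with DMSO, with MS172 highest and PK9328 lowest.

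With PK9328 against DMSO 4 of these 64 rose and 13 fell, at a median of -0.03, where 7.98% of all genes were higher and 7.48% lower. With the fragment length covariate 1 of them, HSPA13, still rose (0.43, adjusted p = 0.0087) and none fell. Over all genes 0.783% were then higher and 0.474% lower. HSPA13 rose by 0.36 ± 0.05 (edgeR adjusted p = 1.7e-06) and UFM1, a ubiquitin-like modifier, by 0.36 ± 0.06 (adjusted p = 0.00011). SSR2 fell by 0.24 ± 0.04 (adjusted p = 7.7e-05) and the metallopeptidase ERMP1 by 0.19 ± 0.04 (adjusted p = 0.00078). Between the compounds 37 were higher with MS172 and 3 lower, at a median of 0.18, where 23.3% of all genes were higher and 24.4% lower. They were led by SSR2, KDELR2, the transcription factor CREB3L1 and RPN1 (higher by 0.60, 0.42, 0.45 and 0.36). With the covariate 23 were higher with MS172 and 1 lower, where 9.80% of all genes were higher and 7.89% lower.

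Genes downstream of PERK were read beside EIF2AK3. With PK9328 against DMSO all 4 rose: ATF4, the transcription factor whose translation eIF2α phosphorylation favours, TRIB3, the phosphatase subunit PPP1R15A (GADD34) that reverses the phosphorylation, and DDIT3 (CHOP). With MS172 ATF4 and TRIB3 rose, and PPP1R15A and DDIT3 fell. Over all genes 7.98% were higher with PK9328 against DMSO, and 17.9% were higher and 17.2% lower with MS172 against DMSO. PPP1R15A had 66.3, 64.2 and 60.8 CPM with MS172, 159, 154 and 161 CPM with PK9328, and 95.6, 95.2 and 100 CPM with DMSO, with MS172 lowest and PK9328 highest, and it fell by 0.60 ± 0.04 with MS172 against DMSO (edgeR adjusted p = 2.1e-12) and rose by 0.70 ± 0.04 with PK9328 (adjusted p = 3.6e-14). DDIT3 had 53.2, 49.7 and 44.0 CPM with MS172, 139, 129.9 and 145 CPM with PK9328, and 51.8, 58.0 and 57.1 CPM with DMSO, and MS172 and DMSO overlapped. Its fall with MS172 was 0.18 ± 0.07 (adjusted p = 0.039). All 4 were lower with MS172 than with PK9328, with log2 fold changes of -0.23 (ATF4) to -1.49 (DDIT3), where 24.4% of all genes were lower. With the fragment length covariate all 4 still rose with PK9328 against DMSO, where 0.783% of all genes were higher. Between the compounds DDIT3 and PPP1R15A were still called with the covariate and ATF4 and TRIB3 were not, where 7.89% of all genes were lower.

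Promoter sequences were searched because several members are textbook carriers of the endoplasmic reticulum stress element (ERSE), which ATF6 binds with the factor NF-Y. The window was the 250 bases before each RefSeq gene start on GRCh38.p14, on both strands, for the 34 members with an entry (PDIA3, DERL1 and SEC24D had none) and for 27305 promoters in all. The ERSE, CCAAT followed by CCACG after 9 bases of any kind, was found in 7 of 34 members (20.6%) and in 22 of all promoters (0.0806%). The carriers were HSPA5, HSP90B1 (with 2 matches), CRELD2, CALR, CANX, ERO1B and XBP1. Its core CCACG alone was found in 23 members (67.6%) and in 33.3% of all promoters. TGACGTGG, the unfolded protein response element read by XBP1s, was found in 1 member, HYOU1, and in 0.667% of all promoters. TGATGNAAN, a composite site of C/EBP and ATF factors, was found in 1 member, HERPUD1, and in 3.18% of all promoters. A further form, ERSE-II (ATTGG followed by CCACG after 1 base of any kind), searched after the HERPUD1 window had been read, was found in 3 members (8.82%), HYOU1 with 2 matches, SDF2L1 and HERPUD1, and in 14 of all promoters (0.0513%). Each ERSE and ERSE-II match contains the core, and the unfolded protein response element in HYOU1 overlaps one of its ERSE-II matches.

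The windows of HSPA5, XBP1 and HERPUD1 are shown because their ERSE or ERSE-II lies in a member that rose with PK9328. They are RefSeq sequences on GRCh38.p14, 5′ to 3′ on the gene's strand, without the bases that GENCODE 29 counts as transcribed, and capitals mark the fixed letters of the matches, which in HERPUD1 are the C/EBP and ATF site on the opposite strand and then the ERSE-II.
HSPA5 (chr9:125241344-125241593, minus strand): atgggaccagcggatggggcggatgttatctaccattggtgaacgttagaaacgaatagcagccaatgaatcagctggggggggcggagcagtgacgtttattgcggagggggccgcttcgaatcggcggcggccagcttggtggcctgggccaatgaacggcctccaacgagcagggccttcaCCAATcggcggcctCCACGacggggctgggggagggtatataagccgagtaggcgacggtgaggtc
XBP1 (chr22:28800598-28800819, minus strand): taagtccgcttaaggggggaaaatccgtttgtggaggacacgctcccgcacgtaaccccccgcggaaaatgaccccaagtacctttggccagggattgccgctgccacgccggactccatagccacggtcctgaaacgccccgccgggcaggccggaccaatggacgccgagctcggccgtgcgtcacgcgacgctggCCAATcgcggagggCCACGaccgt
HERPUD1 (chr16:56931892-56932047, plus strand): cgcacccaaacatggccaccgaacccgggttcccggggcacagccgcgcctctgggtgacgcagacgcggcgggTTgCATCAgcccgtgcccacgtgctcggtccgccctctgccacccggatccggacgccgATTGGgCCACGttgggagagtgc

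Members with the same element did not all move in 1 direction. Of the 7 ERSE carriers, HSPA5, CALR and XBP1 rose with MS172 against DMSO and none fell. Over all genes 17.9% were higher and 17.2% lower in that comparison. In PK9328-treated cells HSPA5 and XBP1 rose against DMSO, HSP90B1 and CRELD2 fell, and CALR, CANX and ERO1B were not called. Over all genes 7.98% were higher and 7.48% lower with PK9328. The fall of HSP90B1 was lost with the fragment length covariate (edgeR adjusted p = 0.12). That of CRELD2 held with the covariate but not with length-scaled TPM (adjusted p = 0.09) or without PK9328 replicate 1, PK9328 replicate 2 or DMSO replicate 3. With length-scaled TPM CANX was called higher (0.30, adjusted p = 0.018). Of the ERSE-II carriers, SDF2L1 and HERPUD1 rose with PK9328 and HYOU1 was not called. Further matches, each written from the strand that carries the element and shown because their genes differed in direction, were these.
HSP90B1, first match: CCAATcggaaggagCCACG
HSP90B1, second match: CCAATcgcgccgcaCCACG
CRELD2: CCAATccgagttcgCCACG
CALR: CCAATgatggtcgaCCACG
CANX: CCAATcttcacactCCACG
ERO1B: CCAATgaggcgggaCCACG
SDF2L1: ATTGGtCCACG
HYOU1: ATTGGaCCACG
DNAJB9, which rose with PK9328 by as much as HERPUD1, had 2 copies of the core CCACG and no match to the longer elements in this window.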

How the data were processed

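RNA of 9 BxPC3 libraries was examined, 3 per group by the sample titles. Per the file headers, the deposited tables give for 197653 transcripts the length, effective length, an estimated count of reads and TPM. The deposited TPM values, which allow for transcript length, add up to 1000000 in every library. FastQC 0.11.8 and hg38 are named by the submitters' processing notes. Which program assigned the reads, with which index and which strand setting, is not given in the sources used here.

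Estimated counts of the 193348 transcripts that matched GENCODE 29 (GRCh38) were added up within 56865 genes, then rounded, and the unmatched transcripts held 0.356% to 0.382% of reads. All 9 libraries entered 1 edgeR 4.0.16 quasi-likelihood fit in R 4.3.3 (TMM, filterByExpr, robust dispersion, 6 residual degrees of freedom, common biological coefficient of variation 0.044), with Benjamini-Hochberg adjustment over 13914 genes and a threshold of 0.05. Tables of CPM use TMM-scaled libraries, intervals are 95% intervals, and changes are called rises or falls only past the threshold. Depth and 3 libraries per group limit the precision of genes with few reads. MANF had few reads, and its count rests on 4 of 5 annotated transcripts. Standard errors cover the spread between libraries only. No 2 libraries of a group agreed within sampling noise.

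XBP1 transcripts were sorted by whether the 26 bases were present in the reference sequence, the spliced share was taken over coding transcripts, and groups were compared with the exact permutation test over libraries. Reads shared with a gene on the opposite strand, as for DNAJB9 with THAP5 and PNPLA8 or PDIA3 with ELL3, cannot be told apart without the strand setting. Mean fragment length was read as the gap between length and effective length in transcripts of 3000 bases or longer.

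The members, the gene lists and the tests were chosen with earlier results of these data known. Every member is named, with values in each library for members past the threshold in a comparison whose groups do not overlap, and in the other list the 4 genes of smallest p per comparison. Motifs were searched in RefSeq promoters. Alternatives were DESeq2 1.42.0, limma-voom (limma 3.58.1), RLE size factors, a filter of 1 CPM in 3 libraries, none at all, a replicate block, counts from length-scaled TPM, only the 6 libraries compared, the fragment length covariate and each library left out. The edgeR fit of XBP1 as 2 rows and the ERSE-II search were added after seeing the data.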

Additional observations from a re-analysis of the deposited data

How the results depend on the processing

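Under RLE size factors, DESeq2, limma-voom, no filter, the filter of 1 CPM in 3 libraries and the fit of only the 6 libraries compared, 18 to 20 members were called for MS172 against DMSO, 14 to 17 for PK9328 against DMSO and 28 to 30 for MS172 against PK9328. Over all genes the counts in these comparisons were 4317 to 4946, 1911 to 2237 and 6013 to 6757, of 12513 to 24471 tested. Member counts moved by more than 1.5 times in 3 cases. With length-scaled TPM the count for MS172 against DMSO was 12 in place of 19. Over all genes 3350 of 13963 were then called in place of 4884 of 13914. With the fragment length covariate, PK9328 against DMSO gave 6 in place of 15 and MS172 against PK9328 gave 17 in place of 28. Over all genes the covariate gave 175 in place of 2151 and 2462 in place of 6641. The cause was not tested. With length-scaled TPM the split for MS172 against PK9328 was 11 higher and 11 lower, and 3 differences turned: ERO1A to -0.11, MBTPS1 to -0.087 and SSR1 to -0.0021. Over all genes the split with length-scaled TPM was 2697 higher and 2816 lower, of 13963 tested.

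With 1 library left out, member counts ranged from 15 to 19 for MS172 against DMSO, 11 to 15 for PK9328 against DMSO and 23 to 30 for MS172 against PK9328. Over all genes they ranged from 3874 to 4897, 1384 to 2215 and 5651 to 6770. Without DMSO replicate 2 the falls of members with MS172 against DMSO numbered 2 in place of 6. Over all genes the falls were then 1831 of 14138 in place of 2398 of 13914. The XBP1 spliced share difference ranged from -23.7 to -20.8 points, 14.7 to 17.6 points and -39.3 to -38.0 points in the same comparisons, and from TPM it was -28.6, 16.1 and -44.7 points.

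Same-numbered libraries of different groups did not deviate together (correlations of -0.057 to 0.017), so the numbers were not taken to pair the samples. With the replicate block 17, 15 and 29 members were called, and over all genes 4597, 1884 and 6405 of 13914. The rises of HSPA5 (edgeR adjusted p = 0.053) and PDIA4 and the fall of ERN1 with MS172 against DMSO then missed the threshold. MANF passed for MS172 against DMSO (-1.80, adjusted p = 0.0055) and against PK9328 (-1.98, adjusted p = 0.0016). The blocked differences in XBP1 spliced share were -22.2, 16.2 and -38.4 points. Few reads and 3 libraries per group leave MANF, at 0.163 to 2.32 CPM and with rows for 4 of 5 annotated transcripts, without a usable interval.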
